A study of Mus musculus with 61 samples.

Results

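The genes described here make, bind, sense or destroy retinoic acid in mouse stembryos, which are gastruloids grown from aggregated embryonic stem cells. They are Aldh1a2, Dhrs3, Cyp26a1, Cyp26b1, Cyp26c1, Crabp1, Crabp2, Rarb and Rarg, taken by symbol from the expression table as 9 of its 55052 genes. The 61 RNA-seq libraries fell into 28 groups. A wild-type time course had 2 libraries at each of 72, 84, 96, 108, 120, 132, 144 and 168 h after aggregation, and further wild-type libraries served as controls (4 for 96 h, 4 for 120 h and 2 for 144 h). The other 35 libraries came from 8 lines with homozygous changes at the HoxD locus, each with 2 libraries per stage except Del(sub-TAD1) at 96 h, which had 3. Levels are FPKM, in which fragments are divided by transcript length and by library size, so that they can be compared between genes.

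All stembryos received a pulse of the Wnt agonist Chiron, and only elongating ones were collected from 108 h on, pooled for each condition. The wild-type cells were EmbryoMax 129/SVEV. Del(CBS1), Del(CBS2) and Del(CBS4) each lacked 1 CTCF-binding site (CBS) of HoxD, and Del(CBS1-2) was made by deleting CBS2 in Del(CBS1) cells. Ins(2xCBS-d4d8) carried a cassette with 2 added CTCF sites near CBS1, and Del(d1-d4) lacked Hoxd1 to Hoxd4. These 6 lines were CRISPR-edited clones of the wild-type cells, so the edit and the picked clone cannot be told apart in them. Del(CBS1-5), which lacked the CBS1 to CBS5 sites, and Del(sub-TAD1), which lacked the neighbouring sub-TAD1 with Mtx2 and carried a rescuing Mtx2 transgene, were instead derived from mouse blastocysts, so origin and deletion cannot be told apart in those lines. Del(CBS4) was measured at 120 and 144 h, Del(CBS1-5) at 96, 120 and 144 h and the other 6 lines at 96 and 120 h.

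Retinoic acid is made from retinol in 2 oxidation steps. Aldh1a2 carries out the second and is the main retinoic acid synthase of early mesoderm and somites, while Dhrs3 reduces the intermediate retinaldehyde back to retinol. The Cyp26 enzymes oxidize retinoic acid for removal, and in the embryo Cyp26a1 protects the growing tail end from a signal that spreads from the somites. Crabp1 and Crabp2 bind retinoic acid in the cytoplasm, Crabp2 being known to carry it to the nucleus, where Rarb and Rarg are receptors that act with a retinoid X receptor on paired half-sites in DNA.

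Retinoic acid receptors are known to bind direct repeats of a hexamer with 1, 2 or 5 bases between the copies, so the members' promoters are shown where such a repeat was found. Promoter windows of RefSeq (build GRCm38.p6, 250 bases before to 50 after a listed start of a gene) were found for 8 of the 9 members, 11 windows in all, and none was found for Crabp2. Half-sites were AGGTCA or AGTTCA or GGTTCA or GGGTCA, searched on both strands. Cyp26a1 and Rarb each held 1 repeat with a spacing of 5 bases, a pattern present in 0.0974% of the 32851 mouse promoter windows of that length, and no member held one with a spacing of 1 or 2, present in 0.222% and 0.268% of windows. The windows are chr19:37697558-37697857 on the + strand for Cyp26a1 and chr14:16575427-16575726 on the - strand for Rarb. The Rarb window lies inside the gene (chr14:16430839-16819156) and not at its outer 5′ end. Each window is written from 5′ to 3′ on the gene's strand with the half-sites in capitals, and in Cyp26a1 the repeat reads on the opposite strand.
Cyp26a1: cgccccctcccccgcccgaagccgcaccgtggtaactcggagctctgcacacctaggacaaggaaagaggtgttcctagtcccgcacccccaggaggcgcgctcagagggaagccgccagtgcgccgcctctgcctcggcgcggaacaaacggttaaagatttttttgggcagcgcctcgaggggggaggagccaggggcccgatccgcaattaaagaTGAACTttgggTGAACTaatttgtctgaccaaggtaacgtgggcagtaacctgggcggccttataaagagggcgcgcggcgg
Rarb: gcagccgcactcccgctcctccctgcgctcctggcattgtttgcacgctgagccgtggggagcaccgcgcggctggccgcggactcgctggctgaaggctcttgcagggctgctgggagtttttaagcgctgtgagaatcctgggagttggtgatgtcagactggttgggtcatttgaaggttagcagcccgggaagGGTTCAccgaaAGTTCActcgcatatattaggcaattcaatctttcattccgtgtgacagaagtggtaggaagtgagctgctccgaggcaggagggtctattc
A match is a description of these letters only. In the cells, Cyp26a1 was measured in every library and Rarb was listed at 0 in every library, as described below for each.

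Estimated depth was 15.5 to 40.4 M fragments (M, mega) per library (median 24.9). The labels of Del(d1-d4) were borne out by Hoxd1, Hoxd3 and Hoxd4, each at 0 in its 4 libraries and at 4.59 FPKM or more in all 8 wild-type libraries of the same stages. The libraries fell into a set of 28 and a set of 33 that differed in the summed level of pseudogenes and predicted genes (114953 to 150082 FPKM against 8705 to 25893), in which some controls were in a different set from the mutant they were compared with. Comparisons against wild type of the same set are therefore given beside the results. At 96 and 120 h the first set held 3 of the other wild-type libraries, and the second held 1 of them and the 2 of the time course, so for Del(CBS4), Ins(2xCBS-d4d8) and the 96 h libraries of Del(sub-TAD1) this match also exchanged the wild-type series, and at 144 h it added the 2 time-course libraries to the 2 controls. Markers fixed for other cell types also differed between some groups and are given where they moved with a member, and in these whole stembryos fewer cells of a type and less RNA per cell cannot be told apart. Marker lists that did not move with a member are not shown. A sum can be led by 1 gene. The highest levels were 1129 FPKM for Pou5f1 and 82.5 for Nanog among pluripotency markers, and 457 for Trh and 187 for Cer1 among definitive endoderm markers. Tests were made with limma on log2(FPKM + 0.1) over 17098 genes with Benjamini-Hochberg adjustment, two-sided at 0.05, on a scale that understates the change of low genes. The 7 members tested exclude Cyp26c1 and Rarb, which never reached a mean of 1 FPKM in a group. P-values measure only the spread between these pooled samples.

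The transcript of the main synthase appeared between 72 and 84 h. Aldh1a2 (chr9:71215789-71296243, + strand) was at 0.672 and 0.938 FPKM at 72 h in the 2 libraries of the time course, 152 and 152 at 84 h, 330.0 and 841 at 96 h, 164 and 148 at 108 h, 73.2 and 27.2 at 120 h, 21.2 and 23.1 at 132 h, 27.8 and 27.7 at 144 h and 42.3 and 46.2 at 168 h. It was lowest at 72 h and highest at 96 h in both replicate series, and no adjacent stages overlapped up to 132 h although the pairs at 96 and 120 h were wide. The gene rose by 7.41 ± 0.39 (SE) on the log2 scale from 72 to 84 h (limma adjusted p = 7.78e-17, 170-fold) and by 1.79 ± 0.39 from 84 to 96 h (adjusted p = 0.000659). It then fell by 1.76 ± 0.39 to 108 h (adjusted p = 0.00235) and by 1.80 ± 0.39 to 120 h (adjusted p = 0.00253), and no later step passed (adjusted p from 0.19 to 0.809). The 96 h calls rested on its second library: without it the log2 changes into and out of 96 h were 1.12 and -1.08 and neither passed, and the step to 120 h did not pass without the second 120 h library (-1.09). That 96 h library also held summed definitive endoderm markers of 709 FPKM against 163 in the first, somite markers of 362 against 167 and cardiac markers of 30.6 against 1.06, and the part of these cells in the Aldh1a2 level was not tested.

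The other wild-type libraries showed the same decline without overlap. Aldh1a2 was at 458, 400.1, 169 and 363 FPKM at 96 h and at 16.9, 17, 36.0 and 18.5 at 120 h, and it was 19.7 and 20.2 at 144 h. Every 96 h library was above every 120 h library, with replicate 3 of each stage nearest to the other stage. It fell by 3.95 ± 0.27 on the log2 scale (limma adjusted p = 5.36e-14), among 4 members of 7 that changed between these stages, where 27.1% of all genes did. In these replicates 3 the summed pluripotency markers were 116 FPKM at 96 h and 92.4 at 120 h, against 32.4 to 43.2 and 10.2 to 23.6 in the others of each stage.

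Dhrs3 (chr4:144892827-144928209, + strand), the reductase that opposes synthesis, rose with Aldh1a2 but did not decline with it. It was at 0.160 and 0.286 FPKM at 72 h, 2.77 and 2.83 at 84 h, 7.05 and 5.98 at 96 h, 8.34 and 15.8 at 108 h, 8.98 and 18.6 at 120 h, 11.8 and 12.1 at 132 h, 5.08 and 4.92 at 144 h and 7.07 and 6.54 at 168 h. Both libraries of each stage were above both of the one before up to 108 h, and the 120 h pair enclosed the 132 h pair. It rose by 3.19 ± 0.23 to 84 h (limma adjusted p = 3.34e-13), 1.18 ± 0.23 to 96 h (adjusted p = 0.000163) and 0.81 ± 0.23 to 108 h (adjusted p = 0.0178) on the log2 scale, and it fell by 1.24 ± 0.23 from 132 to 144 h (adjusted p = 0.000792). The step to 108 h was 0.36 without the second 108 h library and did not pass without it or without the second 96 h library. In the other wild type, Dhrs3 went from 4.63, 5.42, 4.199 and 5.38 FPKM at 96 h to 12.9, 11.5, 14.3 and 10.8 at 120 h, a rise of 1.31 ± 0.16 with no overlap (adjusted p = 3.97e-08), and it was 2.65 and 3.45 at 144 h.

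**Figure D1:**
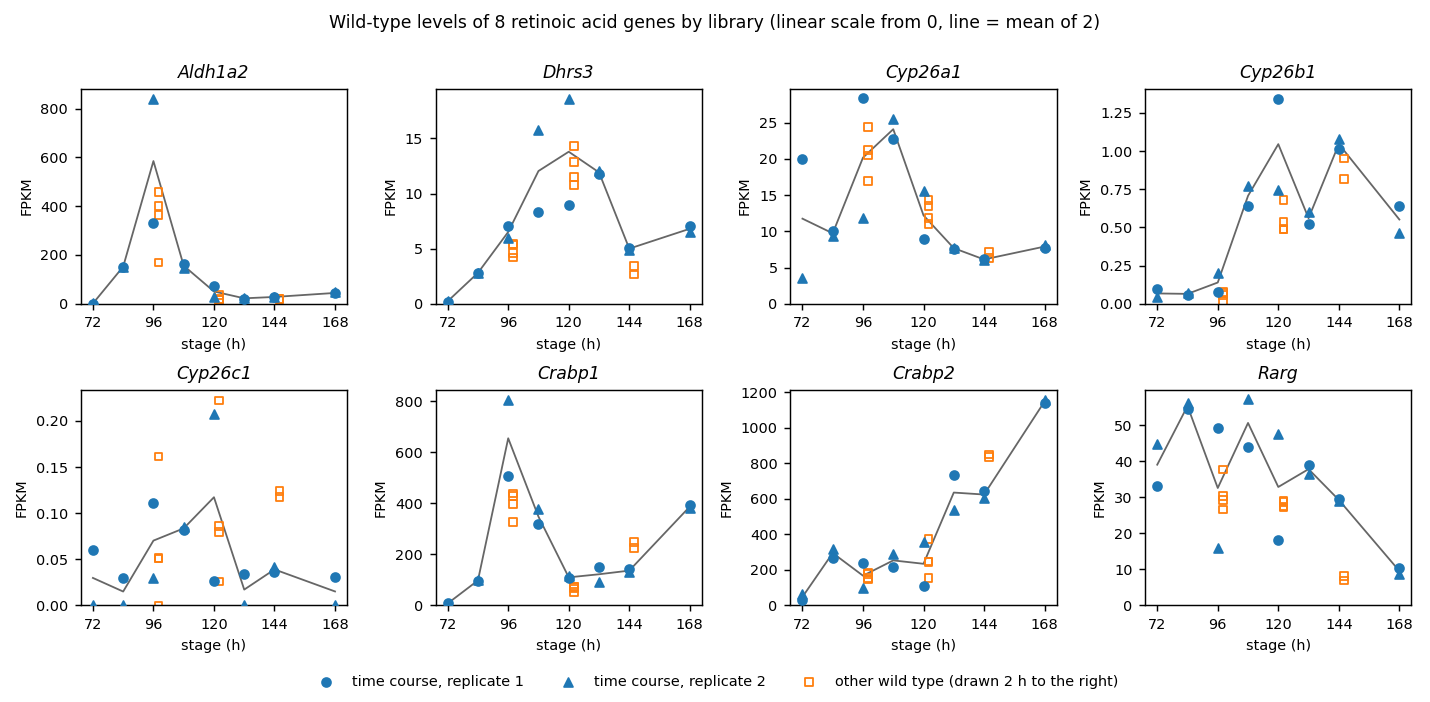
FPKM, on linear axes from 0, of the 8 members that were above 0 in any library, against the stage in hours after aggregation. Filled points are the 2 replicates of the wild-type time course, the line joins their means, and open squares are the other wild-type libraries, drawn slightly to the right. Aldh1a2 and Crabp1 are highest at 96 h, Crabp2 is highest at 168 h, and Cyp26b1 reaches no more than 1.34 FPKM.

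Of the degrading enzymes, Cyp26a1 (chr19:37697798-37701536, + strand) was the abundant one at every stage. It was at 19.96 and 3.53 FPKM at 72 h, 10.1 and 9.39 at 84 h, 28.5 and 11.9 at 96 h, 22.7 and 25.5 at 108 h, 8.87 and 15.5 at 120 h, 7.62 and 7.73 at 132 h, 6.14 and 6.09 at 144 h and 7.64 and 8.14 at 168 h. The libraries from 132 h on were all below those from 84 to 120 h, while the 72 h pair spanned most of the range by itself. No step between adjacent stages passed (log2 changes from -1.03 to 0.91, limma adjusted p from 0.0946 to 0.908), and the peak was at 96 h in the first replicate series and at 108 h in the second. In the other wild type the level was 16.96, 20.4, 24.4 and 21.2 FPKM at 96 h and 11.8, 10.99, 14.4 and 13.5 at 120 h, without overlap, and the difference of -0.70 ± 0.27 missed the threshold (adjusted p = 0.0523).

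Cyp26b1 (chr6:84571414-84593908, - strand) was low and appeared later. It was at 0.0938 and 0.0408 FPKM at 72 h, 0.0594 and 0.0695 at 84 h, 0.0777 and 0.200 at 96 h, 0.641 and 0.773 at 108 h, 1.34 and 0.748 at 120 h, 0.522 and 0.599 at 132 h, 1.01 and 1.08 at 144 h and 0.640 and 0.464 at 168 h. All libraries up to 96 h were below all later ones. The rise from 96 to 108 h was 1.80 ± 0.24 on the log2 scale (limma adjusted p = 3.09e-06). Smaller steps passed up to 144 h (0.80 ± 0.24, adjusted p = 0.0429) and down to 168 h (-0.83 ± 0.24, adjusted p = 0.0214), and the first of these was lost without any 1 of its 4 libraries and the second without 3 of 4. In the other wild type Cyp26b1 was at 0.0685, 0.0193, 0.0591 and 0.0776 FPKM at 96 h, 0.534, 0.681, 0.487 and 0.488 at 120 h and 0.817 and 0.951 at 144 h. The stages did not overlap, and the rise from 96 to 120 h was 2.06 ± 0.17 (adjusted p = 5.37e-12).

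Cyp26c1 (chr19:37685581-37693398, + strand), which lies beside Cyp26a1 on the same strand, was close to the limit of detection. It was listed at 0 in 7 libraries, its median was 0.0561 FPKM and its highest value was 0.281, in Del(CBS1-5) at 96 h. In 38 of the 61 libraries the level was at or under what 3 fragments would give (0.0480 to 0.125 FPKM depending on depth), so no difference between groups was detectable at this depth. Its highest time-course stage by mean was 120 h.

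The binding proteins exchanged places during the time course. Crabp1 (chr9:54764748-54773110, + strand) was at 8.46 and 7.05 FPKM at 72 h, 95.9 and 99.97 at 84 h, 507 and 803 at 96 h, 318 and 378 at 108 h, 106 and 114 at 120 h, 151 and 93.6 at 132 h, 141 and 132 at 144 h and 393 and 382 at 168 h. Its libraries were highest at 96 h and again high at 168 h, with a trough from 120 to 144 h in between. On the log2 scale it rose by 3.65 ± 0.21 (limma adjusted p = 1.93e-15) and 2.703 ± 0.21 (adjusted p = 8.76e-12) in the first 2 steps, fell by 0.88 ± 0.21 (adjusted p = 0.00588) and 1.65 ± 0.21 (adjusted p = 2.99e-06) in the next 2, and rose by 1.505 ± 0.21 from 144 to 168 h (adjusted p = 4.38e-06). The change to 108 h was -0.55 without the second 96 h library and did not pass without it or without the first 108 h library. Crabp1 fell also between the other wild-type libraries, from 429, 439, 328 and 397 FPKM at 96 h to 72.5, 66.7, 74.2 and 53.7 at 120 h (-2.58 ± 0.15, adjusted p = 7.96e-16), and it was at 248 and 226 at 144 h.

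Crabp2 (chr3:87948666-87953376, + strand) was at 31.2 and 64.6 FPKM at 72 h, 269 and 320.1 at 84 h, 238 and 96.9 at 96 h, 219 and 288 at 108 h, 109.8 and 359 at 120 h, 733 and 536 at 132 h, 644 and 604 at 144 h and 1140.2 and 1154 at 168 h. It stood high from 132 h on, above every earlier library, and the 96 and 120 h pairs were wide. It rose by 2.71 ± 0.36 to 84 h (limma adjusted p = 4.82e-07) and by 1.66 ± 0.36 from 120 to 132 h (adjusted p = 0.00705), and the latter was 0.81 without the first 120 h library and did not pass without it or without the first 132 h library. The first 120 h library held endothelium markers of 41.7 FPKM in sum against 4.29 in the second, definitive endoderm markers of 200 against 53.1, and spinal cord markers of 12.5 against 29.1, and their part was not tested. Crabp2 in the other wild type was at 147, 153, 185 and 175 FPKM at 96 h and 244, 246, 156 and 374 at 120 h, which overlapped (0.57 ± 0.25, adjusted p = 0.0981), and at 848 and 834 at 144 h.

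As a ratio within each library, Crabp2 over Crabp1 was below 1 in every 96 h library of any genotype and above 1 in every 120 h library. In the time course it was 3.69 to 9.17 at 72 h, 2.81 to 3.20 at 84 h, 0.121 to 0.469 at 96 h, 0.689 to 0.761 at 108 h, 1.03 to 3.15 at 120 h, and 2.90 to 5.73 from 132 h on. The geometric mean of the other wild type went from 0.415 at 96 h to 3.67 at 120 h. Over the same 4 and 4 libraries the ratio of Aldh1a2 to Cyp26a1 transcripts went from 15.8 to 1.66. Each difference had a two-sided exact permutation p of 0.0286, the smallest that 4 against 4 allows (adjusted p = 0.0286 over the 2 ratios). Aldh1a2 and Crabp1 alone already separated these stages without overlap, so these p-values give no further support. The Aldh1a2 ratio leaves out Dhrs3 and Cyp26b1, which rose between these stages, and does not measure synthesis or degradation. Mutant ratios of Crabp2 to Crabp1 were 0.226 to 0.715 at 96 h and 1.63 to 8.47 at 120 h, the highest in Del(CBS4).

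**Figure D2:**
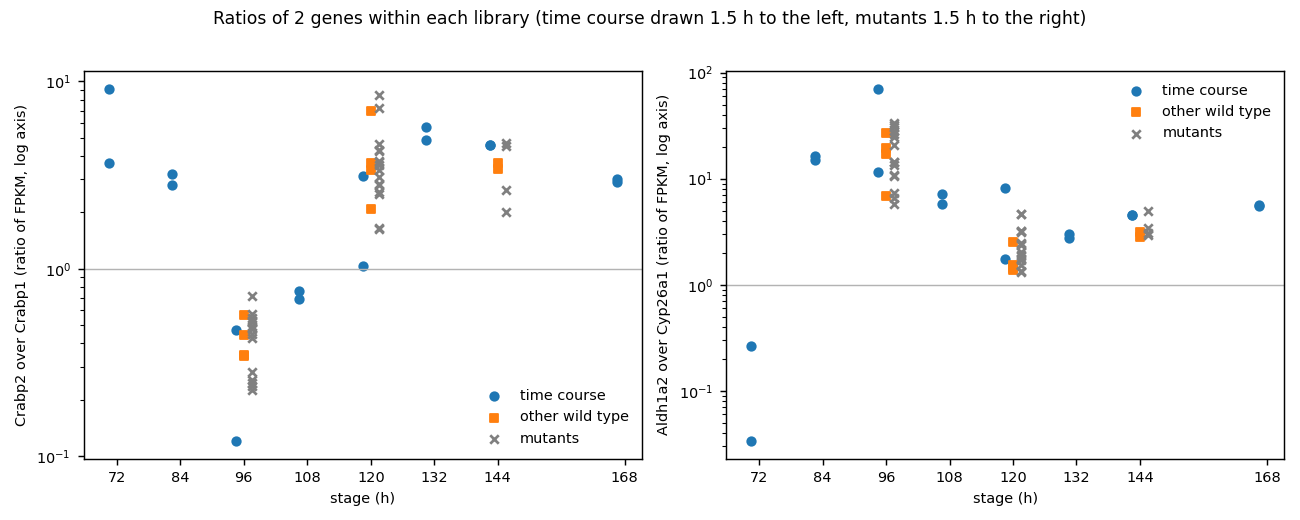
Ratios of Crabp2 to Crabp1 and of Aldh1a2 to Cyp26a1 in each library, on log axes against the stage in hours after aggregation, with circles for the time course, squares for the other wild type and crosses for the mutants. All 96 h libraries lie below a Crabp2 to Crabp1 ratio of 1 and all 120 h libraries above it.

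Of the receptors, Rarg (chr15:102234938-102257517, - strand) was present from the start. It was at 33.3 and 44.9 FPKM at 72 h, 54.7 and 56.1 at 84 h, 49.2 and 16.1 at 96 h, 44.2 and 57.3 at 108 h, 18.2 and 47.6 at 120 h, 39.1 and 36.6 at 132 h, 29.6 and 29.1 at 144 h and 10.3 and 8.83 at 168 h. The 168 h pair was below every other time-course library, and the second 96 h and first 120 h libraries were low against their pairs. It fell by 1.61 ± 0.29 from 144 to 168 h (limma adjusted p = 0.000161). It also fell by 0.97 ± 0.29 from 84 to 96 h (adjusted p = 0.0124), and this was -0.17 without the second 96 h library and did not pass without it or without either 84 h library. The other wild type held 26.7, 30.4, 37.8 and 29.3 FPKM at 96 h and 29.0, 27.5, 28.8 and 27.2 at 120 h (-0.13 ± 0.20, adjusted p = 0.775) but only 6.91 and 8.23 at 144 h.

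Rarb (chr14:16430839-16819156, - strand) was listed at 0 in all 61 libraries, so nothing can be said of its level. The gene overlaps Top2b, on the opposite strand, over 4624 bases, and Top2b was at 18.8 to 43.4 FPKM. Among protein-coding genes that overlap a gene with a median of 10 FPKM or more, 426 of 1439 (29.6%) were listed at 0 throughout, against 1190 of 20242 (5.88%) of the rest. Nkiras1 was another gene listed at 0 in all 61 libraries. The quantification flagged the Rarb estimate as failed in 0 libraries, and it flagged 14 genes in at least 1 library. Why Rarb was listed at 0 was not tested, and the 0 is not taken as a measurement of absence.

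Ordered by level, the binding proteins led at most stages. Crabp2 was first at 72, 84, 120, 132, 144 and 168 h and Crabp1 at 96 and 108 h. At 96 h Crabp1 and Aldh1a2 overlapped, with Crabp2 and then Rarg below them, and at 72 h Crabp2 overlapped Rarg. At 120 h Crabp1 and Crabp2 overlapped, and so did the neighbours among Aldh1a2, Rarg, Dhrs3 and Cyp26a1. Cyp26b1 and then Cyp26c1 were the lowest of the 8 measured members at every stage.

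Across the 7 steps of the time course, 4 members of 7 changed from 72 to 84 h (all up) where 16.3% of all genes tested did, 4 from 84 to 96 h (20.7%), 4 from 96 to 108 h (9.45%), 2 from 108 to 120 h (7.06%), 1 from 120 to 132 h (2.46%), 2 from 132 to 144 h (5.42%) and 3 from 144 to 168 h (9.87%). With 7 members a single call is already a larger share than that of all genes at each step from 96 h on, so the shares are not compared further. With only the time course fitted, no member passed at the steps to 132 and 144 h. The SE was then larger for every tested member, for example 0.53 for Rarg and 0.37 for Dhrs3. The calls that held were Aldh1a2, Dhrs3, Crabp1 and Crabp2 to 84 h, Aldh1a2 and Crabp1 to 96 h, Cyp26b1 to 108 h, and Crabp1 to 120 and to 168 h. The fall of Rarg to 168 h did not pass in that fit (limma adjusted p = 0.125). How far replicates differed also depended on the stage. The higher of the 2 time-course libraries was at a median of 1.03 to 1.21 times the lower over the 7 members at 84, 108, 132, 144 and 168 h, but at 1.79 times at 72 h, 2.45 times at 96 h and 2.07 times at 120 h.

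The time course was set against the other wild-type libraries at the 3 stages they share. Crabp1 was higher in the time course by 0.69 ± 0.18 at 96 h (limma adjusted p = 0.00466) and 0.73 ± 0.18 at 120 h (adjusted p = 0.00316), and at 144 h the difference was -0.80 ± 0.21 (adjusted p = 0.00614). Cyp26b1 was higher by 0.58 ± 0.21 at 96 h (adjusted p = 0.0298) and 0.78 ± 0.21 at 120 h (adjusted p = 0.00443), and Aldh1a2 by 1.09 ± 0.33 at 120 h (adjusted p = 0.0121). At 144 h the time course had more Rarg (1.94 ± 0.29, adjusted p = 6.83e-06) and more Dhrs3 (0.71 ± 0.23, adjusted p = 0.0228). Without the second time-course library at 96 h, Crabp1 (0.36) and Cyp26b1 (0.20) did not pass, nor did Cyp26b1 without the second of the other libraries. Without the first time-course library at 120 h, Cyp26b1 (0.40) and Aldh1a2 (0.38) did not pass. At 144 h the Dhrs3 call was lost without 3 of its 4 libraries taken singly and the Crabp1 call without 2, while the Rarg call held without each of its 4. The members that differed were 2, 3 and 3 of 7 where 32.3%, 30.1% and 21.5% of all genes differed. By its profile over 1000 stage-dependent genes the other 144 h wild type resembled the time course at 155 h, and the summed spinal cord markers were 141 to 156 FPKM in it against 64.4 to 71.7 in the time course, and neuro-mesodermal progenitor markers 45.4 to 51.8 against 182 to 184. Their part in the Rarg and Crabp1 differences was not tested. Ages by profile are rough. When placed against the other replicate series in this way, time-course libraries lay up to 18 h from their labelled stage.

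Genes with profiles most like a member's were sought among 1432 genes over the 16 time-course libraries, which share stage and replicate series, by Pearson's r of log2 levels. Aldh1a2 was most like Draxin (0.946), Pdlim4 (0.937) and Mycn (0.922). Dhrs3 was most like Hoxd4 (0.9702), Hoxd3 (0.966) and Tmem132c (0.964), and Crabp1 like Ephb1 (0.969), Pth1r (0.963) and Cd82 (0.957). Crabp2 was most like Sox2 (0.962), Sox13 (0.959) and Hes3 (0.945), genes of which Sox2 is a factor of neural progenitors and stem cells. Cyp26b1 was most like Foxd2 (0.950), Serpinf1 (0.948) and Sh3bp5 (0.944), and Rarg like Notum (0.953), Etv4 (0.950) and Il17rd (0.936), the first a Wnt inhibitor and the others known FGF targets. Cyp26a1 had weaker neighbours in Grm8 (0.705) and Lhx1os (0.670), and so did Cyp26c1 in Fgf9 (0.639), Hmcn1 (0.628) and Nid2 (0.608), the latter resting on levels near the limit of detection. Among the members, Aldh1a2 and Crabp1 had r = 0.877, and Dhrs3 and Crabp1 had r = 0.791.

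The rest of the pathway was followed with 32 other genes of retinoid uptake, oxidation and response, of which 24 were tested. In the 7 steps in order, 3, 2, 3, 1, 1, 4 and 1 of them rose and 1, 3, 2, 1, 1, 0 and 0 fell, where 16.3%, 20.7%, 9.45%, 7.06%, 2.46%, 5.42% and 9.87% of all genes changed in either direction. One of those that fell to 96 h was Ncoa3, a coactivator of nuclear receptors, which was listed at 0 in 46 of the 61 libraries and at 5.50 FPKM or more in the rest, so its 0 is not taken as absence and no change is given. Stra6, the receptor for retinol uptake, rose by 2.77 on the log2 scale to 84 h and by a further 2.01 to 96 h (limma, past the adjusted threshold), from 1.07 FPKM at 72 h to 38.9 at 120 h. Rxrg, a retinoid X receptor, fell by 2.42 to 96 h and by 3.01 to 108 h, from 9.80 FPKM at 72 h to 0.04 at 132 h. Cyp1b1, an oxidase that can form retinoic acid, rose by 0.85 to 120 h and by 2.04 from 132 to 144 h. Aldh1a1 and Aldh1a3, the other synthases, had no stage mean above 0.39 and 0.27 FPKM, so Aldh1a2 was by far the most abundant synthase transcript from 84 h on. In the other wild type, 6 rose and 2 fell from 96 to 120 h (27.1% of all genes changed), Rxrg by -2.53 and Cyp1b1 by 0.96.

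Of 22 textbook retinoic acid-responsive genes, 20 were tested, and 10, 6, 2, 2, 2, 4 and 2 rose over the 7 steps while 0, 4, 1, 2, 0, 0 and 3 fell, beside the same shares of all genes. At the step where Aldh1a2 appeared, the median change of the list was 0.99 on the log2 scale, with Meis2 at 3.11, and Stra8 was listed at 0 at 72 h and at 0.551 and 0.532 FPKM at 84 h. Tgm2, called at the step to 144 h, was listed at 0 in 52 of the 61 libraries and at 3.34 FPKM or more in the rest, so no change is given for it either. From 84 to 96 h the leading genes were Nr2f2 (5.15), Meis1 (3.93) and Nr2f1 (3.56), nuclear receptors and homeobox genes. Cdx1, a posterior homeobox gene, rose by 1.96 to 84 h, where Aldh1a2 also rose, and then fell by 1.502 to 96 h, 1.28 to 108 h, 1.44 to 120 h and 2.75 to 168 h. Pax6 rose by 2.39 to 132 h and 1.98 to 168 h. Olig2 and Neurog2, genes of spinal cord progenitors, rose by 3.91 and 3.40 to 144 h. In the other wild type 6 rose and 6 fell from 96 to 120 h (27.1% of all genes), Nr2f1 by 4.19, Cdx1 by -3.48 and Nr2f2 by 3.39. Many of these genes also mark tissues that form at these stages, and a level in whole stembryos does not separate these from the response.

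**Figure D3:**
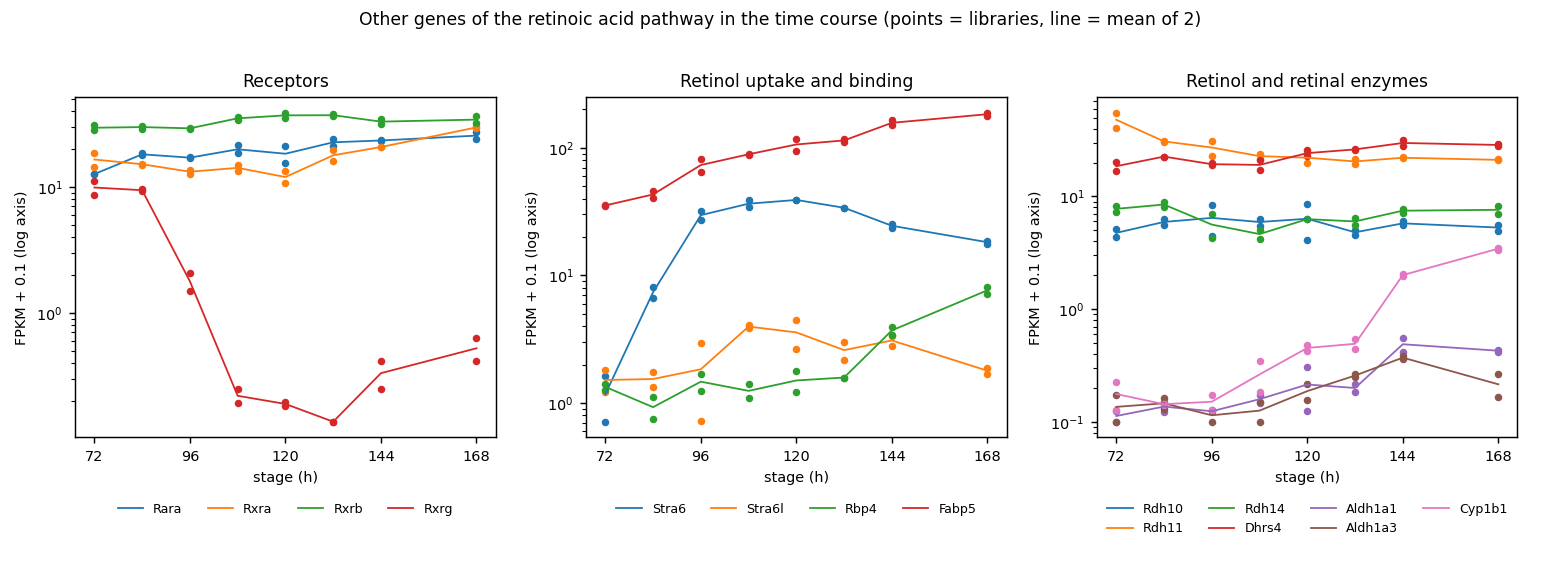
FPKM + 0.1, on log axes against the stage in hours after aggregation, of pathway genes outside the 9 members in the time course, as receptors, retinol uptake and binding genes, and retinol and retinal enzymes. Points are libraries and lines join the means of 2, with Stra6 rising from 1.07 FPKM at 72 h to 38.9 at 120 h and Rxrg falling from 9.80 FPKM at 72 h to 0.04 at 132 h.

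The mutants addressed whether changes to CTCF sites at HoxD went with changes elsewhere in this pathway, none of whose members lies on the same chromosome as HoxD. All mutants of a stage share its control libraries, so their values are not independent. Of 119 tests of a member in a mutant group, 20 passed, and against wild type of the same library set 12 passed, 10 of them the same. The number of members of 7 that changed, beside the share of all genes, was 0 (4.49%) at 96 h and 1 (2.35%) at 120 h in Del(CBS1-2), 0 (1.23%) and 1 (2.1%) in Del(CBS1), 0 (0.298%) and 0 (0.193%) in Del(CBS2), 0 (1.19%) and 0 (1.85%) in Del(d1-d4), 1 (40%) and 1 (6.15%) in Del(sub-TAD1), and 2 (27.9%) and 2 (26.9%) in Ins(2xCBS-d4d8). In Del(CBS1-5) it was 1 (14.8%), 1 (13.3%) and 4 (23.7%) at the 3 stages in order, and in Del(CBS4) it was 5 (37.5%) at 120 h and 1 (2.05%) at 144 h. Where 13.3% or more of all genes changed, a count of 1 or 2 members was near or below that share. In the comparisons where no member passed limma's adjusted threshold, an unadjusted p was under 0.05 for 2 members in Del(CBS1-2) and 2 in Del(CBS1) at 96 h, 1 in Del(CBS2) at each stage, 0 in Del(d1-d4) at 96 h and 3 at 120 h. Against wild type of the same set, 4 members passed (12.4% of all genes) in Del(CBS4) at 120 h and 1 (3.42%) at 144 h. In Del(CBS1-5) 1 (11.9%), 0 (7.85%) and 2 (30.7%) passed in stage order. At 120 h 1 passed in each of Del(CBS1-2) (0.608%), Del(CBS1) (1.2%), Del(sub-TAD1) (6.65%) and Ins(2xCBS-d4d8) (4.35%). None passed in Del(sub-TAD1) (14.1%) and Ins(2xCBS-d4d8) (9.91%) at 96 h or in the other groups (0.199% to 1%).

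The other 99 changes did not pass and ranged from -1.09 to 0.91 on the log2 scale. The lowest was Aldh1a2 in Del(d1-d4) at 120 h (limma adjusted p = 0.0829) and the highest Aldh1a2 in Del(CBS1-5) at 120 h. For the members not called, values ran at 96 h from -0.13 to 0.64 in Del(CBS1-2), -0.15 to 0.51 in Del(CBS1), -0.60 to 0.62 in Del(CBS2), -0.32 to 0.34 in Del(d1-d4), -0.30 to 0.22 in Del(CBS1-5), -0.42 to 0.47 in Del(sub-TAD1) and -0.33 to 0.60 in Ins(2xCBS-d4d8). For 120 h they ran from -0.04 to 0.47 in Del(CBS1-2), -0.35 to 0.35 in Del(CBS1), -0.41 to 0.58 in Del(CBS2), -1.09 to 0.02 in Del(d1-d4), -0.85 to 0.91 in Del(CBS1-5), -0.61 to 0.02 in Del(CBS4), -0.59 to 0.89 in Del(sub-TAD1) and -0.06 to 0.59 in Ins(2xCBS-d4d8), and for 144 h from -0.56 to 0.11 in Del(CBS1-5) and -0.79 to 0.03 in Del(CBS4). In these mutant groups Rarb stayed listed at 0 and Cyp26c1 ran from 0 to 0.281 FPKM.

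**Figure D4:**
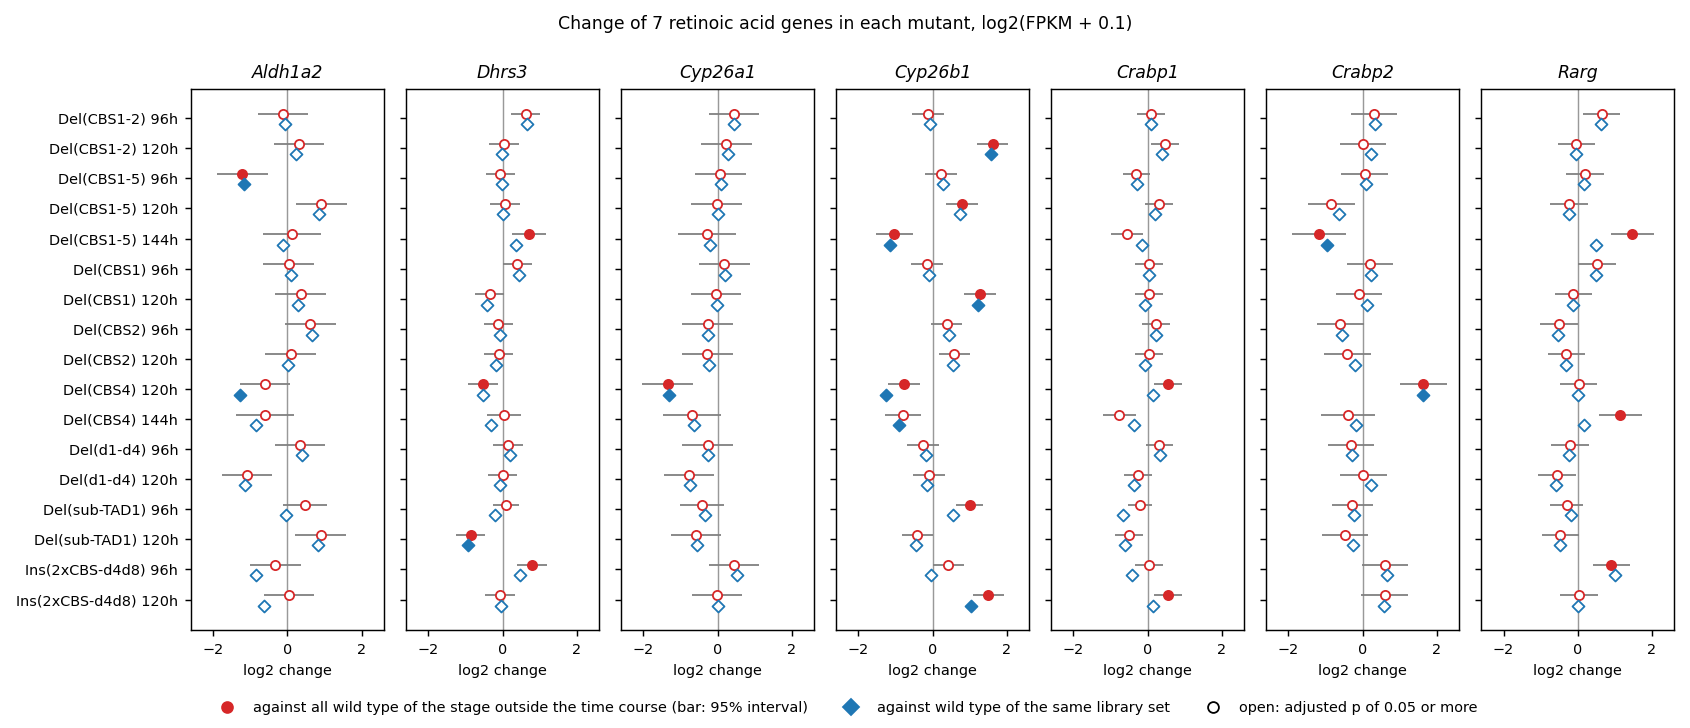
Log2 change of each of the 7 tested members in each of the 17 mutant groups. Circles with 95% intervals are changes against the wild type of the stage outside the time course, diamonds are changes against wild type of the same library set, and filled symbols have an adjusted p under 0.05. Cyp26b1 has the most filled circles, to the right in Del(CBS1-2), Del(CBS1-5), Del(CBS1) and Ins(2xCBS-d4d8) at 120 h and in Del(sub-TAD1) at 96 h, and to the left in Del(CBS4) at 120 h and Del(CBS1-5) at 144 h.

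Cyp26b1 accounted for 7 of the 20 changes. At 120 h it was at 1.76 and 1.98 FPKM in Del(CBS1-2), 1.52 and 1.39 in Del(CBS1) and 1.79 and 1.64 in Ins(2xCBS-d4d8), against 0.534, 0.681, 0.487 and 0.488 in wild type. These 6 libraries were above every wild-type library of the stage, the time course at 1.34 and 0.748 included. Del(CBS1-2) was made from Del(CBS1) cells, so its level and that of Del(CBS1) are not independent. The rises were 1.61 ± 0.21 on the log2 scale (limma adjusted p = 1.33e-05, 3.06-fold), 1.27 ± 0.21 (adjusted p = 0.000488) and 1.498 ± 0.21 (adjusted p = 5.31e-06). Against wild type of the same library set they were 1.57 ± 0.25 (adjusted p = 0.00054), 1.23 ± 0.25 (adjusted p = 0.00522) and 1.02 ± 0.25 (adjusted p = 0.0144). The rises against the 4 controls held with each library left out. None of them passed when only the compared groups were fitted (limma adjusted p = 0.0725, 0.136 and 0.0524). Summed endothelium markers, all 6 of them detected, were 10.3 to 12.5 FPKM in Del(CBS1-2), 10.3 to 12.96 in Del(CBS1) and 2.29 to 6.60 in Ins(2xCBS-d4d8), against 1.73 to 3.84 in the 4 wild-type controls. In the time course, the first 120 h library held more of these markers than any of these mutant libraries, and the second held less than Del(CBS1-2) and Del(CBS1). The part of these markers in the Cyp26b1 level was not tested.

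At 96 h Cyp26b1 in Del(CBS1-2) was at 0.0778 and 0.0124 FPKM, within or below wild type, and the effect at 96 h less that at 120 h was -1.74 ± 0.29 (limma adjusted p = 0.00292, where 0.175% of all genes differed). For Del(CBS1) this difference was -1.43 ± 0.29 (adjusted p = 0.0489, 0.0526% of genes). The 96 h values of both lines and of the 4 controls were below the added 0.1 FPKM, which draws a log2 change at 96 h toward 0. These differences therefore do not show that an effect was absent at 96 h. Neither difference passed against wild type of the same set or with a pseudocount of 0.01 FPKM. The first was lost without the second Del(CBS1-2) 96 h library and the second was lost without 10 of its 12 libraries taken singly. In Ins(2xCBS-d4d8) the difference between stages was -1.08 ± 0.29 and did not pass (adjusted p = 0.112), where 0.392% of genes differed, and of its members 0 passed the adjusted and 3 the unadjusted threshold. Del(CBS2), in which Cyp26b1 was at 1.02 and 0.725 FPKM at 120 h, gave 0.58 ± 0.21 with a 95% interval from 0.16 to 1.00 (adjusted p = 0.31), and Del(d1-d4), at 0.507 and 0.494, gave -0.10 ± 0.21 with an interval from -0.52 to 0.32. For these lines 0.0117% and 0.0234% of genes differed between stages, and of the members 0 passed the adjusted and 0 and 2 the unadjusted threshold of limma.

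**Figure D5:**
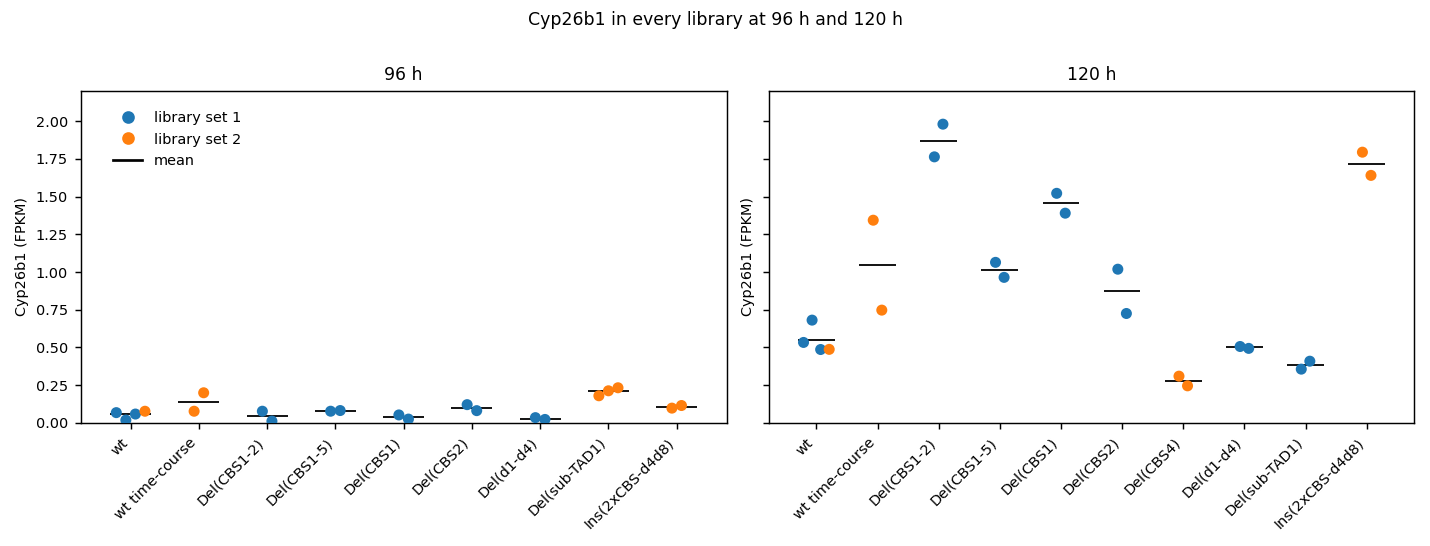
Cyp26b1 level in FPKM in each library of the wild type and the mutants at 96 h and at 120 h, with a point per library coloured by library set and a bar at the group mean. At 120 h the libraries of Del(CBS1), Del(CBS1-2) and Ins(2xCBS-d4d8) lie between 1.39 and 1.98 FPKM, above all wild-type libraries of the stage.

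Del(CBS1-5) departed from wild type in a different way at each stage. At 96 h Aldh1a2 was at 130 and 152 FPKM, below all 4 wild-type libraries (169 to 458) and below the time course, and it fell by 1.21 ± 0.33 on the log2 scale (limma adjusted p = 0.0116). Against the same library set the change was -1.1605 ± 0.39 (adjusted p = 0.0464), and the call was lost without either mutant library. By the profile over stage-dependent genes both mutant libraries resembled the time course at 91 h and the 4 controls at 92 to 100 h, an interval in which Aldh1a2 rose. This gap is smaller than the 18 h by which such ages could miss the labelled stage, and its part in the call was not tested. At 120 h Aldh1a2 was instead at 41.3 and 37.8 FPKM, above the 4 controls (0.91 ± 0.33, adjusted p = 0.065), and the effect at 96 h less that at 120 h was -2.13 ± 0.47 (adjusted p = 0.035, where 0.257% of genes differed), which did not pass against the same set and was lost without 10 of its 12 libraries taken singly. Cyp26b1 at 120 h was at 1.06 and 0.965 FPKM (0.79 ± 0.21, adjusted p = 0.00995), and against the same set the value was 0.75 and did not pass, nor did it without either mutant library.

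At 144 h Del(CBS1-5) had less Cyp26b1, at 0.278 and 0.512 FPKM against 0.817 and 0.951 in wild type and 1.01 and 1.08 in the time course. It fell by 1.03 ± 0.24 on the log2 scale (limma adjusted p = 0.00139), and the change was -1.14 ± 0.23 against the 4 wild-type libraries of the same set (adjusted p = 0.000262). It also had less Crabp2, at 401 and 344 FPKM against 848 and 834 (-1.18 ± 0.36, adjusted p = 0.0136), with -0.96 ± 0.31 against the same set (adjusted p = 0.0173). Both mutant libraries were below all 4 wild-type libraries of that stage for both genes. The Cyp26b1 call was lost without the first mutant library (-0.68), and the Crabp2 call without the second or without either control (-1.07 to -1.29 over the 4 libraries left out). Rarg at 20.1 and 22.04 FPKM (1.47 ± 0.29, adjusted p = 0.000187) and Dhrs3 at 5.56 and 4.60 (0.72 ± 0.23, adjusted p = 0.0176) were above the 2 controls, but Rarg was below the time course at 144 h and Dhrs3 overlapped it, and against the same set their values were 0.49 and 0.37 and did not pass. The summed pluripotency markers were 279 to 280.4 FPKM in this group against 5.02 to 7.10 in wild type and 36.2 to 38.2 in the time course, germ cell markers 41.2 to 47.4 against 3.20 to 3.37 in wild type, and spinal cord markers 31.4 to 33.9 against 141 to 156. By profile both mutant libraries resembled the time course at 139 h and the 2 controls at 155 h, a gap within the 18 h by which such ages could miss. Rarg fell in the time course from 144 to 168 h, and the part of the markers and of this gap in the 4 calls was not tested. Between 120 and 144 h the effect on Cyp26b1 differed by 1.82 ± 0.32 (adjusted p = 0.000235) and that on Rarg by -1.70 ± 0.38 (adjusted p = 0.00388), where 7.07% of all genes differed, and of the pair only Cyp26b1 passed against the same set (1.89, adjusted p = 0.000415).

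Del(CBS4) at 120 h had the most members changed, 5 of 7 where 37.5% of genes changed. Crabp2 was at 607 and 940.1 FPKM against 156 to 374 in wild type, a rise of 1.63 ± 0.31 on the log2 scale (limma adjusted p = 0.000174, 3.11-fold). Cyp26a1 was at 6.17 and 3.86 FPKM against 10.99 to 14.4 (-1.35 ± 0.33, adjusted p = 0.00219), and Cyp26b1 at 0.310 and 0.246 against 0.487 to 0.681 (-0.77 ± 0.21, adjusted p = 0.00403). For these genes neither mutant library overlapped a control, and the Cyp26a1 and Cyp26b1 calls were lost without the second mutant library (-1.02 and -0.65). Against the same library set the values were 1.62 (adjusted p = 0.000794), -1.31 (adjusted p = 0.00991) and -1.25 (adjusted p = 0.000586), and Aldh1a2, at 15.1 and 12.4 FPKM against 18.5 to 73.2, passed as well (-1.28, adjusted p = 0.0263). Against the 4 controls of the stage Aldh1a2 did not pass (-0.61, adjusted p = 0.152), nor with the time course added to them (-0.97, adjusted p = 0.0697), and the set-matched controls were 1 of those 4 and the time course, which itself held more Aldh1a2. Dhrs3 (-0.54 ± 0.20, adjusted p = 0.0307) and Crabp1 (0.54 ± 0.18, adjusted p = 0.0207) passed against the 4 controls but not against the same set (-0.52 and 0.15). Summed spinal cord markers were 107 to 182 FPKM in this group against 18.3 to 38.3 in the controls, and definitive endoderm markers were 16.1 to 21.7 against 31.6 to 189, and their part was not tested. The mutant libraries resembled the time course at 114 and 127 h by profile, and the 4 controls at 116 to 126 h. The part of this spread between the mutant libraries was not tested.

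At 144 h the same line had Crabp2 at 651 and 634 FPKM, below wild type at 848 and 834 (-0.39 ± 0.36, limma adjusted p = 0.793). The effect at 120 h less that at 144 h was 2.02 ± 0.47 for Crabp2 (adjusted p = 0.0055) and 1.30 ± 0.28 for Crabp1 (adjusted p = 0.00294), 2 of 7 members where 8.27% of genes differed. Both were lost without the second Del(CBS4) 120 h library. Against the same set Crabp2 passed (1.79, adjusted p = 0.0227). Rarg at 17.7 and 16.02 FPKM was above wild type at 6.91 and 8.23 (1.146 ± 0.29, adjusted p = 0.0239) but below the time course at 29.6 and 29.1, with 0.17 against the same set, and the call was lost without any 1 of its 4 libraries. By profile the mutant libraries resembled the time course at 126 and 136 h and the controls at 155 h, and the part of this gap was not tested. Cyp26b1 at 0.425 and 0.515 was below both wild-type pairs, which passed against the same set (-0.90, adjusted p = 0.0284) and not against the 2 controls (-0.79 ± 0.24, adjusted p = 0.0806).

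In Del(sub-TAD1), Cyp26b1 at 96 h was at 0.180, 0.213 and 0.233 FPKM against 0.0193 to 0.0776 in the 4 controls and 0.0777 and 0.200 in the time course. It rose by 1.00 ± 0.18 on the log2 scale (limma adjusted p = 0.00013), and by 0.54 without passing against the same set. Dhrs3 at 120 h was at 6.13 and 7.35 FPKM, below all wild-type libraries of the stage (8.98 to 18.6). It fell by 0.86 ± 0.20 (adjusted p = 0.00508), and against the same set the change was -0.93 ± 0.23 (adjusted p = 0.0105). The call was lost without the first mutant library (-0.73). Between the stages the effects differed by 0.96 ± 0.26 for Dhrs3 (adjusted p = 0.00773) and 1.41 ± 0.28 for Cyp26b1 (adjusted p = 0.00152), 2 of 7 members where 23.6% of genes differed, and neither passed against the same set.

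In Ins(2xCBS-d4d8) at 96 h, Dhrs3 was at 9.40 and 7.81 FPKM against 4.199 to 5.42 (0.80 ± 0.20, limma adjusted p = 0.00348) and Rarg at 61.7 and 54.0 against 26.7 to 37.8 (0.90 ± 0.25, adjusted p = 0.00702). Both were above the time course too, and against the same set the values were 0.48 and 1.01 without passing. Crabp1 at 120 h was at 97.6 and 94.5 FPKM against 53.7 to 74.2 (0.53 ± 0.18, adjusted p = 0.0289) and below the time course at 106 and 114, with 0.15 against the same set. Cyp26a1 was among the members with no called change in this line, at 30.2 and 25.7 FPKM at 96 h against 16.96 to 24.4 (0.44 ± 0.33, with a 95% interval from -0.24 to 1.11).

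Of the 24 tested genes of the pathway list, at most 1 passed in Del(CBS1-2), Del(CBS1), Del(CBS2) and Del(d1-d4) at each stage, where 0.193% to 4.49% of all genes did. In the other 4 lines the counts lay near or below the share of all genes wherever that was 13.3% or more. Del(CBS4) at 144 h had 0 up and 2 down (2.05% of all genes), and Del(sub-TAD1) at 120 h had 0 up and 0 down (6.15%). In Del(CBS4) at 120 h 7 rose and 3 fell where 37.5% of all genes changed, with a median change of 0.15 on the log2 scale. Among them Ncoa3 was listed at 0 in all 4 controls, and Rxrg was at 0 and 0.0221 FPKM against 0.0632 to 0.330 in the controls. In Del(sub-TAD1) at 96 h 8 rose and 1 fell where 40% of all genes changed, with Rxrg at 0.92, Fabp5, a lipid carrier that binds retinoic acid, at -0.84 and Cyp1b1 at 0.77. In Del(CBS1-5) at 144 h 1 rose and 4 fell where 23.7% of all genes changed, with Rxrg at 2.05, Stra6l at -1.92 and Rbp4 at -1.32.

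The responsive list had 3 up and 3 down of 20 in Del(CBS4) at 120 h, below the 37.5% of all genes, with Pax6 at 3.11, Neurog2 at 1.98 and Stra8 at -1.72 on the log2 scale. At 144 h that line had 2 up and 0 down of the list (2.05% of all genes). In Del(CBS1-5) the list had 2 up and 1 down at 96 h (14.8%) and at 120 h (13.3%). It had 2 up and 7 down in Del(CBS1-5) at 144 h where 23.7% of all genes changed, in a group whose pluripotency and germ cell markers were high. The largest changes there went in both directions. Lefty1, a Nodal antagonist also expressed in pluripotent cells, was at 82.2 to 97.5 FPKM against 0.189 to 0.414 in wild type (7.86), and Stra8, a gene of germ cells entering meiosis, was at 11.9 to 12.02 FPKM against 0.302 to 0.359 (4.81). Neurog2 was at 0.998 to 1.06 FPKM against 10.9 to 14.4 (-3.49), and Tgm2 was listed at 0 against 6.73 to 7.97 FPKM. No gene of the list passed in Del(CBS2) at either stage, Del(CBS1) at 96 h or Del(CBS1-2) at 120 h (0.193% to 2.35% of all genes). The list had 1 up and 2 down in Del(CBS1-2) at 96 h (4.49%) and 2 up and 2 down in Del(CBS1) at 120 h (2.1%). Del(d1-d4) had 0 up and 1 down at 96 h (1.19%) and 1 up and 4 down at 120 h (1.85%). Del(sub-TAD1) had 3 up and 1 down (40%), then 4 up and 1 down (6.15%). Ins(2xCBS-d4d8) had 2 up and 2 down (27.9%), then 2 up and 0 down (26.9%).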

How the data were processed

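Poly-A RNA of pooled stembryos was sequenced as stranded paired reads. The authors trimmed adapters with cutadapt 1.16, aligned with STAR 2.7.7a to mm10 and computed the deposited FPKM values from uniquely mapped reads with Cufflinks 2.2.1 on an Ensembl-based annotation. FPKM are not counts, and identifiers listed on more than 1 line (25) were summed. Depth was estimated from the steps between low values (15.5 to 40.4 M fragments), and intervals of 3 fragments cover counting error only.

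Groups came from the labels. limma 3.58.1 (R 4.3.3) was fitted to log2(FPKM + 0.1) with 1 coefficient for each of 28 groups, over 17098 genes with a mean of 1 FPKM or more in a group, with Benjamini-Hochberg adjustment at 0.05. The fit was tested on simulated data. The library sets were found from the summed level of pseudogenes and predicted genes, where a mitochondrial level had been planned for this.

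All 9 members were to be described in every comparison, 7 could be tested, and those with no called change in a mutant are given as ranges. Of the pathway and responsive lists, counts were given and at most 3 called genes per comparison named, by largest change, and a few genes that met the naming rules are not reported here. The 3 most alike genes were the highest Pearson r over the 16 time-course libraries among genes with a highest stage mean of 5 FPKM or more and a range of 2 or more on the log2 scale. The members and lists were chosen with earlier results of these data known.

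Alternatives were pseudocounts of 1 and 0.01 FPKM, no filter, 2 scalings, a variance trend, a replicate block, the library set as a term or matched, added or fewer groups, and each library left out. The largest correlation of same-numbered libraries was 0.094, so replicate numbers were not used to pair samples.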

Additional observations from a re-analysis of the deposited data

Results flagged for a closer look

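Aldh1a2 in the third wild-type library at 120 h was at 36.0 FPKM, far from the other 3 of its group (16.9 to 18.5), with a gap of 0.917 of the group's range. Of the 16 groups of 4 libraries and members examined in this way it was the only one, and chance gives about 1 in 20.

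The remaining results are mutant effects on a member that differed between stages in limma's test of the difference, as log2 values after Benjamini-Hochberg adjustment. Cyp26b1 had an effect at 96 h less that at 120 h of -1.74 in Del(CBS1-2), -1.43 in Del(CBS1) and 1.41 in Del(sub-TAD1). Its effect at 120 h less that at 144 h was 1.82 in Del(CBS1-5). Aldh1a2 differed by -2.13 between 96 and 120 h in Del(CBS1-5), and Rarg by -1.70 between 120 and 144 h in that line. Between 120 and 144 h in Del(CBS4), Crabp1 differed by 1.30 and Crabp2 by 2.02. Dhrs3 differed by 0.96 between 96 and 120 h in Del(sub-TAD1). Against wild type of the same library set 2 of these 9 passed, Cyp26b1 in Del(CBS1-5) and Crabp2 in Del(CBS4). With a pseudocount of 0.01 FPKM the Cyp26b1 differences in Del(CBS1-2) and Del(CBS1) did not pass.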

How the results depend on the processing

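The 20 member changes in mutants became 12 against wild type of the same library set (10 shared), 12 with the time course added to the controls and 3 when only the compared groups were fitted. The 9 differences between stages became 2 against the same set and 5 with the time course added, and the 20 time-course steps became 9 when only the time course was fitted. Fewer libraries then estimate the spread, and with only the time course fitted the SE of every tested member was also larger. In other settings these counts stayed within 1.5 times. With the replicate block they were 21 in mutants, 21 in the time course, 5 between the other wild-type stages, 7 between series and 10 between stages of a mutant, against 20, 20, 4, 8 and 9.

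Leaving out each library gave 16 to 24 in mutants, 17 to 28 in the time course, 4 to 5 between the other wild-type stages, 6 to 10 between series and 7 to 10 between stages of a mutant. Without the second 72 h library, Cyp26a1 from 72 to 84 h was -1.03 (limma adjusted p = 0.0208), and without the first it was 1.43 (adjusted p = 0.00108), where 0.20 had not passed. Without the second 96 h library, Rarg between series at 96 h was 0.67 (adjusted p = 0.0477), and without the first it was -0.93 (adjusted p = 0.00563), where -0.13 had not. Called in Ins(2xCBS-d4d8), Dhrs3 and Rarg at 96 h were lost without the first mutant library.

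The peak stage of a replicate series differed from that of the mean at 132 h for Dhrs3, 96 h for Cyp26a1, 120 h for Cyp26b1 and 96 h for Cyp26c1 in the first series, and 108 h for Rarg in the second. Depth limits Cyp26c1 most, and Cyp26b1 before 108 h. Without scaling, the median change of all genes was within 0.1 on the log2 scale in each comparison. The scaling factors of single libraries ran from -0.195 to 0.165 on that scale.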
